A study of Mus musculus with 4 samples.

Results

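In mouse dermal fibroblasts, 346 regions of open chromatin were strong both in cells without Sod2 and in cells given rotenone, and weak or undetected in both control libraries. The assay was ATAC-seq, which reads out accessible DNA through insertions of the Tn5 transposase, and the authors' peak lists were ranked by the −log10 p that their peak caller gave each peak, with ties broken by fold enrichment. A region was taken when it was among the 30000 best ranked peaks of the knockout library, overlapped a peak among the 30000 best of the rotenone library by at least 1 bp, and overlapped none of the 60000 best peaks of the Sod2+/+ control or of the vehicle library. These regions are called gained in both below, and a peak among the 30000 best of its list is called strong. They made up 1.15% of the 30000 strong knockout peaks, out of 1705856 peaks in the 4 lists. The regions were chosen by −log10 p and fold enrichment in all 4 libraries, so their levels in the 4 libraries are given as a description, with no test.

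All 4 libraries were made from dermal fibroblasts of C57BL/6 mice, 1 library per group, and the labels of all 4 carry 100 days, without saying from when. The Sod2+/+ control had no stated treatment. The knockout was labelled as a conditional knockout with the genotype Sod2-/-, and the labels name neither the driver nor the deleted part. The vehicle library came from Sod2+/+ cells with vehicle, and the rotenone library from Sod2+/+ cells with rotenone, labelled 250 µM. The 2 comparisons thus rested on different control libraries, and the rule asked for absence from both.

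Sod2 encodes the manganese superoxide dismutase of the mitochondrial matrix, which turns superoxide into hydrogen peroxide. Rotenone is a plant compound that blocks respiratory complex I, so electrons back up in the chain and can leak to oxygen. Open chromatin marks DNA that regulatory proteins can reach. Promoters are open in most cell types, while distal enhancers open and close with cell identity and state, and in fibroblasts many of them are bound by AP-1, TEAD and RUNX factors. The title of the series names persistent activity of JunB, an AP-1 subunit, and skin aging.

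The sequences below belong to the few gained regions that lay on a listed promoter or beside a mature microRNA. No genome sequence was used here, so the sequence of the distal regions, which were the majority, is not shown. The first 3 are the 250 bases upstream of the start of Eef2, which encodes a translation elongation factor, Srpk1, a kinase of splicing factors, and Stard3, a cholesterol transfer protein of late endosomes. They are RefSeq sequence of GRCm38.p6, the assembly behind mm10, at chr10:81176381-81176630 on the plus strand, chr17:28622522-28622771 on the minus strand and chr11:98358118-98358367 on the plus strand. Each reads 5′ to 3′ towards the start site, and capitals mark the motif matches that a search of both strands found.
Eef2: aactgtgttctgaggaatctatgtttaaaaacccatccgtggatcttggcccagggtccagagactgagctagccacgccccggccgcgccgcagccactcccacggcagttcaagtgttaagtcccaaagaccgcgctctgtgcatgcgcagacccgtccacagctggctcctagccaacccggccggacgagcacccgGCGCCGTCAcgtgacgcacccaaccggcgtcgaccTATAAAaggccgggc
Srpk1: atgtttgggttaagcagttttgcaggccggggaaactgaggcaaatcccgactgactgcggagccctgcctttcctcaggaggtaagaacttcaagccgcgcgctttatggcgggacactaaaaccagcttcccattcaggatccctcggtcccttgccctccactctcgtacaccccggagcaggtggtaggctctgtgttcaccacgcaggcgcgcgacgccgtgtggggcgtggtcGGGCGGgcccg
Stard3: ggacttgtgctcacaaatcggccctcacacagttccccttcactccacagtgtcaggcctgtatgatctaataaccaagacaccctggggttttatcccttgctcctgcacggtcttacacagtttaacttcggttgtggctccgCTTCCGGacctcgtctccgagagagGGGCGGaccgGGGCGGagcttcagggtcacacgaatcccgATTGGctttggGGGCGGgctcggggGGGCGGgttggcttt
The gained region of Eef2 covered the last 184 of these bases, that of Srpk1 the last 173, and that of Stard3 the bases from 250 to 44 before the start. The 27 bases at chr11:75655922-75655948 (plus strand) hold an AP-1 match upstream of Myo1c, which encodes an unconventional myosin, and were partly covered by a gained region that reached from 210 to 75 bases before the start. Capitals mark the 7 bases of the match.
Myo1c AP-1 site: ctggaaaaccTGACTCAggcggagccc
The widest gained region lay beside Mir21a, the gene of miR-21, a microRNA known for its rise in stressed and fibrotic tissue. Capitals mark the seed, bases 2 to 8, which pairs with target transcripts and differs between the arms.
mmu-miR-21a-5p: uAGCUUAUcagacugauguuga
mmu-miR-21a-3p: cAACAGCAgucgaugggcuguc

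A total of 9 listed promoter windows of 250 bases were overlapped by a gained region: those of Eef2, Srpk1, Stard3, Myo1c, Kyat1, Tjap1, Krtap1-5 and the neighbouring pair Rpl18 and Sphk2, which share a single region. Across all 9 windows, the AP-1 motif (TGANTCA) matched at Myo1c alone, the cAMP response element (TGACGTCA) at Rpl18 alone, and the antioxidant response element (TGACNNNGC) at Eef2 and Kyat1. The Eef2 match lay 50 to 42 bases before the start, and a TATA box (TATAAA) followed at 15 to 10. Among 21263 promoter windows of coding genes searched the same way, 6.13% held the AP-1 motif, 1.92% the cAMP response element, 10.4% the antioxidant response element and 11.6% the TATA box. The GC box (GGGCGG, held by 42.6% of all windows), the CCAAT box (CCAAT, 35.4%) and the ETS motif (CCGGAAG, 8.98%) were searched as well. In the 9 windows, a GC box was found in 6, a CCAAT box in 3, an ETS match in 3 and a TATA box in 2, Eef2 and Krtap1-5, of which Krtap1-5 held 4. With 9 windows, these counts are a description. The search took whole windows, and some matches lay outside the bases that the gained region covered. The Kyat1 region covered the bases from 107 to 1 before the start, while the antioxidant response element lay at 180 to 172. In Stard3 the CCAAT box at 40 to 36 and the GC boxes at 29 to 24 and 15 to 10 lay outside. Of the Krtap1-5 TATA boxes, only that at 167 to 162 lay in the covered bases, 250 to 122. Stard3 held 4 GC boxes, 1 CCAAT box and 1 ETS match, and Srpk1 held 1 GC box, 11 to 6 bases before the start. A match describes letters and shows no binding. In Kyat1 the GC box and the ETS match share 1 base, and the shorter motifs can overlap the longer ones in other windows.

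The lists differed in length, with 433013 peaks for the Sod2+/+ control, 340240 for vehicle, 585165 for the knockout and 347438 for rotenone, and read depth is unknown. Strong peaks of the knockout and rotenone were less enriched, with a median fold of 5.49 and 5.99 against 6.78 in control and 7.13 in vehicle, and narrower, at 293 and 277 bp against 376 and 349 bp. The same rank also stood for different significance, since the weakest strong peak had a −log10 p of 21.7 in control and 18.2 in vehicle against 16.0 in the knockout and 12.3 in rotenone. Of 10 fibroblast markers, 9 had a strong peak assigned to them in the knockout and 8 in each other library. The same count was 3 or 4 of 6 for keratinocyte markers, 4 of 5 for endothelial markers, 1 or 2 of 5 for myeloid, 0 or 1 of 4 for lymphocyte, 0 to 2 of 5 for melanocyte and Schwann cell, 1 or 2 of 4 for adipocyte, 1 of 4 for muscle and 3 of 4 for pericyte markers. Those with no strong peak in any list included Krt1 and Dsg3, Pecam1, Csf1r, Cd68 and Adgre1, Cd3e and Cd8a, Sox10 and Tyr, Adipoq, Myod1, Myf5 and Des, and Abcc9. Counted only within 1000 bp of a gene end, a strong peak was found for 1 or 2 of 10 fibroblast markers, 2 of 6 keratinocyte, 1 or 2 of 5 endothelial, 0 or 1 of 5 myeloid, 1 or 2 of 5 melanocyte and Schwann cell, 0 or 1 of 4 adipocyte and 0 of 4 lymphocyte, muscle and pericyte markers each, so these counts did not set fibroblasts apart. Gained regions were assigned to the fibroblast marker Dcn and the adipocyte marker Lep among these genes. The part of other cell types or of enrichment in the gained regions was not tested. In such bulk libraries, a larger share of cells with an open region and a more open region in each cell cannot be told apart.

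The 346 regions were a minority of what each perturbed library held outside its own controls. Of the strong knockout peaks, 1600 lay outside the 60000 best control peaks, or 5.33%. Of these, 561 (35.1%) were also strong in rotenone. That share was lower than over all strong knockout peaks, where 24748 of 30000 overlapped a strong rotenone peak. Of the 561, 215 were left out because they overlapped one of the 60000 best vehicle peaks. In rotenone, 2042 strong peaks lay outside the 60000 best vehicle peaks, or 6.81%. Between the control and vehicle libraries, which share the Sod2+/+ genotype and had no rotenone, the numbers were smaller: 309 strong vehicle peaks lay outside the best control peaks (1.03%) and 254 strong control peaks outside the best vehicle peaks (0.847%). In the opposite direction, 560 strong control peaks overlapped a strong vehicle peak and none of the 60000 best knockout or rotenone peaks, or 1.87% of the strong control peaks. These regions lost in both were more numerous than those gained in both, but the 2 counts do not compare like with like. The lost rule asked for strength in control and vehicle, of which few strong peaks lay outside the other list. The limit of 60000 also stood for a −log10 p of 11.1 in control and 9.90 in vehicle, against 8.95 in the knockout and 7.43 in rotenone. With 1 library per group, no replicate shows how far 2 libraries of the same cells would differ.

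A further 752 strong knockout peaks lay outside both control lists without being strong in rotenone. Of these, 470 overlapped one of the 60000 best rotenone peaks, and 43 overlapped no rotenone peak of any strength. Most of the regions counted for the knockout alone therefore had a weaker rotenone peak in the same place. With 347438 rotenone peaks listed, some overlap is common, and the same shares over all strong knockout peaks were not counted. For the vehicle list, of similar length, 0.483% of all strong knockout peaks had no peak of any strength. The counts thus do not show that these regions shared more with rotenone than other strong knockout peaks.

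Gained regions were mostly weak in the controls rather than absent. A control and a vehicle peak of some strength was listed at 322 of 346, a control peak alone at 14, a vehicle peak alone at 4, and neither at 6. Over all strong knockout peaks, 0.243% had no control peak and 0.483% no vehicle peak of any strength. Where a peak was listed, its fold enrichment ran from 1.98 to 3.77 with a median of 3.16 in control, and from 2.01 to 4.04 with a median of 3.35 in vehicle. In the knockout the fold ran from 2.43 to 7.24 with a median of 4.65, and in rotenone from 2.51 to 8.63 with a median of 5.05. The perturbed libraries were thus higher as the rule required, but the regions were of modest strength even there. Only 47 exceeded the median fold of strong peaks in the knockout and 42 did so in rotenone. By rank, 243 of 346 stood between 20001 and 30000 in the knockout and 251 in rotenone, and only 5 and 9 were among the 10000 best.

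**Figure D1:**
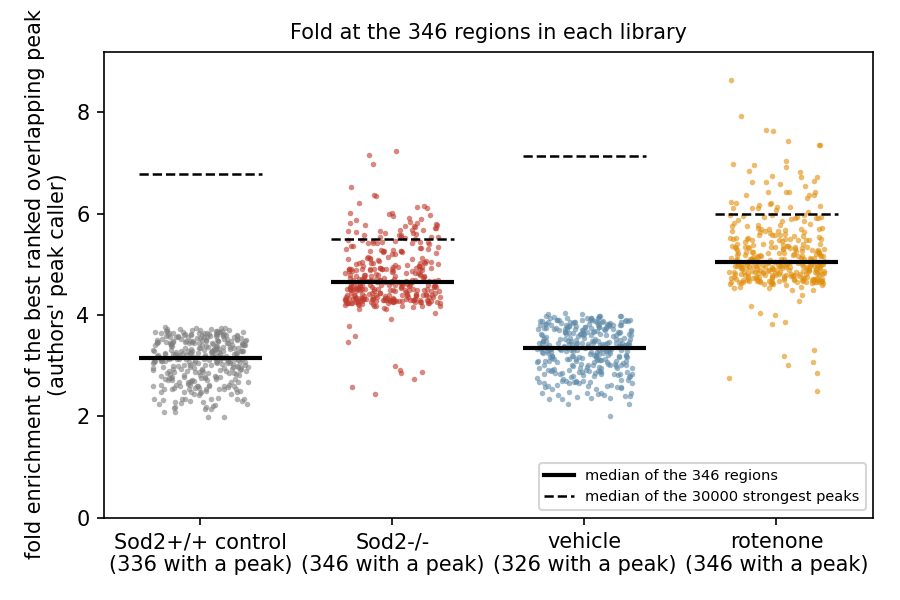
Fold enrichment at the 346 regions in each library, as the authors' peak caller gave it for the best ranked overlapping peak. Each point is a region, solid lines are the medians of the regions (3.16, 4.65, 3.35 and 5.05), and dashed lines are the medians of the 30000 strong peaks of the same list.

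Many regions stood close to the limit in the controls. The best overlapping control peak ranked between 60001 and 70000 at 88 regions, and the best vehicle peak at 78, with 28 regions in that band in both. At the other end, 52 regions ranked below 120000 in both lists or had no peak there. These 52 were narrower than the regions as a whole, with a median width of 147 bp against 198 bp for all 346, and 14 were under 100 bp wide. Avoiding overlap with more control and vehicle peaks favours narrow regions in itself, so this width is no separate result. Among the 52, a fold of at least 5 in both the knockout and rotenone was reached at 9: Atxn2, Cacna1a, Unc13c, Otud7b, Tcte2, Lrrfip1, Mlip, Nbas and a predicted gene. Unc13c, Otud7b, Lrrfip1, Mlip and Nbas were singled out here after their values were seen.

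At Otud7b, which encodes a deubiquitinase, a 318 bp region inside the gene (chr3:96128161-96128478) had a fold of 2.30 in control and 2.67 in vehicle against 5.95 in the knockout and 5.77 in rotenone. A region 6591 bp from Unc13c, the gene of a synaptic vesicle priming protein, spanned 191 bp at chr9:73472641-73472831. Its folds were 2.23 in control and 2.41 in vehicle, where the peaks were only 24 and 34 bp wide, against 6.52 in the knockout and 5.86 in rotenone. Each perturbed library was above both controls at these places, which the rule favours.

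The 6 regions with no peak in either control list were all narrow in the knockout, between 36 and 87 bp, which the lack of any overlap favours. They were assigned to Tcte2, Rps24, Sfi1, Nppc, Slc17a1 and Fhit, which were named for this absence. The region nearest Tcte2, 125961 bp away at chr17:13590389-13590475, had a fold of 5.33 in the knockout and 5.80 in rotenone, where its peak spanned 342 bp. At Nppc, the gene of C-type natriuretic peptide, the 45 bp peaks had folds of 4.31 and 4.97. No read counts stand behind these peaks here, so an unlisted peak does not show that the chromatin was closed.

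**Figure D2:**
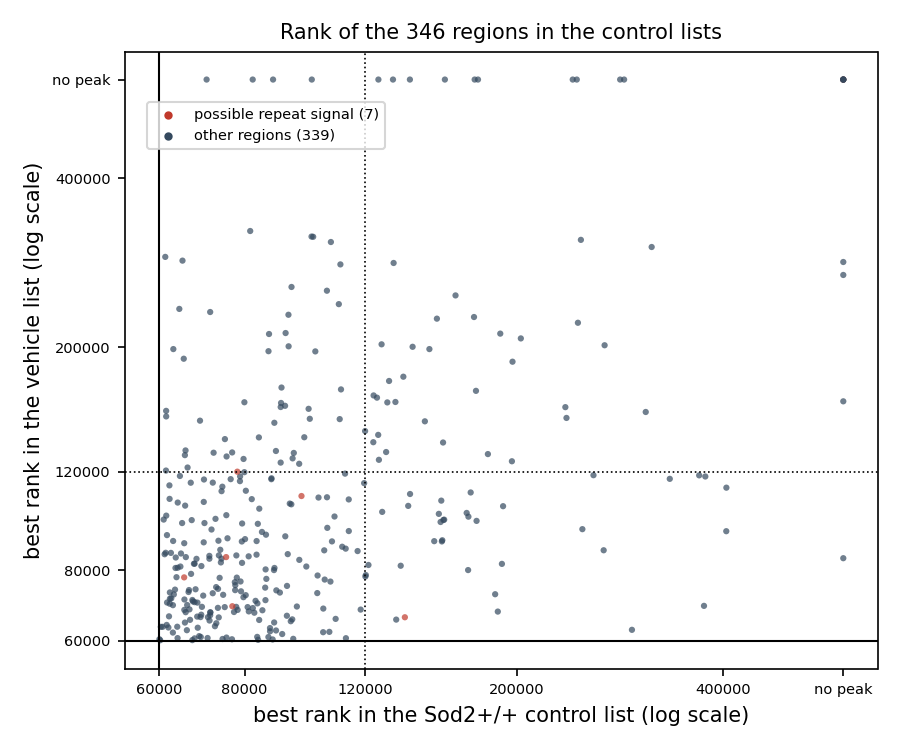
Rank of the best overlapping peak in the control list (horizontal, log scale) and in the vehicle list (vertical, log scale) for each of the 346 regions. Solid lines mark rank 60000, the limit of the rule, dotted lines rank 120000, beyond which 52 regions lay in both lists, and points at the upper and right edges have no peak.

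The gained regions lay away from genes more often than strong knockout peaks in general. Only 22 of 346, or 6.36% (95% exact interval 4.03 to 9.47), were within 1000 bp of an end of a protein-coding gene, against 25.5% of all strong knockout peaks. Weaker peaks were less often at gene ends, and within ranks 20001 to 30000 the shares were 7.41% (4.45 to 11.5) for the gained regions and 17.6% for all strong knockout peaks. More than 50000 bp from any coding gene lay 24.3% (19.9 to 29.1), against 15.4% of strong knockout peaks. The share at gene ends moved with the list lengths: it was 13.3% against 32.2% of strong knockout peaks with 15000 strong and 30000 control peaks, 3.59% against 18.8% with 60000 and 120000, and 14.9% against 25.5% with 30000 strong and 30000 control peaks. The regions themselves changed too, and 12 and 52 of the 346 were overlapped with the shorter and the longer lists. Inside a coding gene lay 157 of them, or 45.4% (40.0 to 50.8), against 51.7%. Intervals are Clopper-Pearson intervals and cover counting error only, since peaks of 1 library are not replicates.

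Regions lost in both had a low share at gene ends too, 8.39% (6.23 to 11.0). They lay far from genes less often, with 15.5% (12.6 to 18.8) beyond 50000 bp, an interval that does not reach that of the gained regions. A peak that was strong in all 4 lists lay within 5000 bp of 13.0% (9.65 to 17.0) of the gained regions and 20.2% (16.9 to 23.7) of the lost ones. For all strong knockout peaks this share was 18.3%. Within ranks 20001 to 30000 it was 13.6% (9.54 to 18.5) for the gained regions and 17.3% for all strong knockout peaks. The 752 regions outside both control lists that were not strong in rotenone resembled the gained regions in position, with 7.58% (5.79 to 9.71) at gene ends and 24.9% (21.8 to 28.1) beyond 50000 bp.

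**Figure D3:**
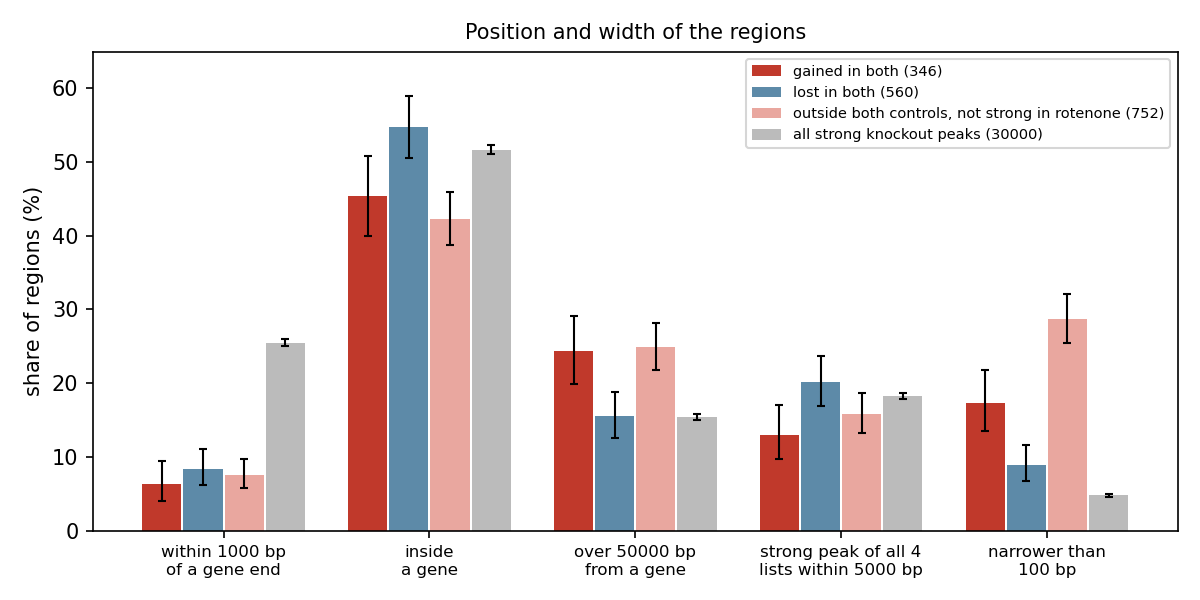
Share of regions (percent) by position and width for the 346 regions gained in both, the 560 lost in both, the 752 outside both control lists but not strong in rotenone, and all 30000 strong knockout peaks. Bars start at 0 and error bars are 95% exact intervals, with the gained regions at 6.36% near gene ends against 25.5% of all strong peaks.

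The regions were also narrow, which the rule favours, since a narrow peak overlaps control and vehicle peaks less easily. How far the rule alone gave this was not tested. Their median width in the knockout was 198 bp, against 293 bp for all strong knockout peaks. Of the 346, 60, or 17.3% (13.5 to 21.8), were under 100 bp, against 4.77% of strong knockout peaks. Of the regions lost in both, which are peaks of the control list, 8.93% (6.70 to 11.6) were. Weaker peaks were narrower in general, and within ranks 20001 to 30000 the median was 198 bp against 223 bp for all strong knockout peaks, with 40 of 243, or 16.5%, against 8.32% under 100 bp. The regions that were not strong in rotenone were under 100 bp more often still, at 28.7% (25.5 to 32.1). They did not have to overlap a strong rotenone peak, a requirement that favours wider regions. A width of at least 100 bp in both the knockout and the rotenone list was reached by 267 of 346. At the other extreme, 10 were wider than 500 bp, and these lay beside Vmp1, Malat1, Glyctk, Thbs1, C1qtnf7, Taf5l, Zfp637, Magi2, Glis3 and Nrsn1. The knockout folds of these 10 lay between 3.46 and 5.68.

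**Figure D4:**
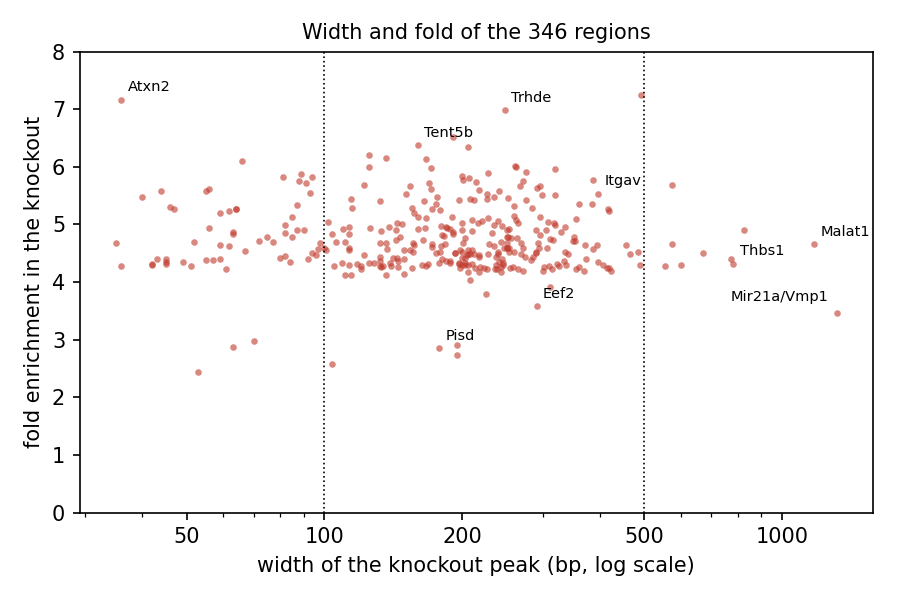
Width (bp, log scale) and fold enrichment of the 346 regions in the knockout library. Each point is a region, dotted lines mark 100 and 500 bp, and the highest folds belong to regions below 500 bp, such as the 36 bp peak inside Atxn2, while the widest region, beside Mir21a and Vmp1, had a fold of 3.46.

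The widest gained region lay just beyond the end of Vmp1 and Mir21a. It spanned 1314 bp at chr11:86582035-86583348, 510 bp past the far end of Vmp1, which encodes a membrane protein needed for autophagy, and 719 bp from the Mir21a hairpin at chr11:86584067-86584158. Both genes are on the minus strand, so the region lay downstream of the miR-21 sequences shown above. Its fold was 2.72 in control and 2.92 in vehicle against 3.46 in the knockout and 3.86 in rotenone, and its width was 794 and 721 bp in the controls against 1314 and 1123 bp. The step was small in fold and larger in width. Further from the genes, a peak that was strong in all 4 libraries had a fold of 6.82 in control and 6.75 in vehicle against 5.47 in the knockout and 5.89 in rotenone. By rank it stood at 10522 in control and 15191 in vehicle against 10370 in the knockout and 11036 in rotenone, so each perturbed library ranked it better than its own control did, with a lower fold. Mir21a and Malat1 were singled out after their values were seen, as regions are assigned to coding genes by rule.

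Malat1, a long noncoding RNA of nuclear speckles, carried the second widest region at its 3′ end. The region at chr19:5794757-5795931 overlapped the end of Malat1 (chr19:5795690-5802672, minus strand) and the gene of mascRNA, the small RNA cleaved from that end. Its fold was 3.62 in control and 3.44 in vehicle against 4.65 in the knockout and 5.04 in rotenone, and its width was 767 and 753 bp in the controls against 1175 and 1034 bp. Upstream of the Malat1 start, a second peak had ranks of 44856 in control and 53751 in vehicle, which kept it out of the gained regions, and ranks of 5346 in the knockout and 4743 in rotenone. Its fold was 7.82 in the knockout and 8.56 in rotenone, against 4.13 in vehicle and 4.30 in control.

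Thbs1 had the best ranked gained region at a gene end. Thbs1 encodes thrombospondin 1, a secreted matrix protein that can activate latent TGF-β. The region spanned 782 bp at chr2:118126995-118127776 across the higher-coordinate end of the gene, whose strand was not given in the table used. It ranked 10546 in the knockout and 10652 in rotenone, and 112419 in control and 87493 in vehicle. Its fold was 2.85 in control and 3.40 in vehicle against 4.32 in the knockout and 5.04 in rotenone. The peaks there were 312 and 116 bp wide in the controls, and 638 bp wide in rotenone.

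Integrin genes followed. Itgav encodes the αV integrin chain, a receptor for vitronectin, fibronectin and latent TGF-β, and Itgb8 encodes the β8 chain that pairs with it. The Itgav region, 22536 bp upstream of the gene at chr2:83699372-83699767, had a fold of 2.86 in control and 3.79 in vehicle against 5.54 in the knockout and 7.63 in rotenone. It was the only peak among the 60000 best of the knockout list within 10 kb on either side, while the 60000 best of the control and of the vehicle list held none there. Inside Itgb8, the region at chr12:119217901-119218176 had folds of 3.46 and 3.26 in control and vehicle, and 5.91 and 5.31 in the knockout and rotenone. At both genes each perturbed library was above both controls, which the rule favours.

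**Figure D5:**
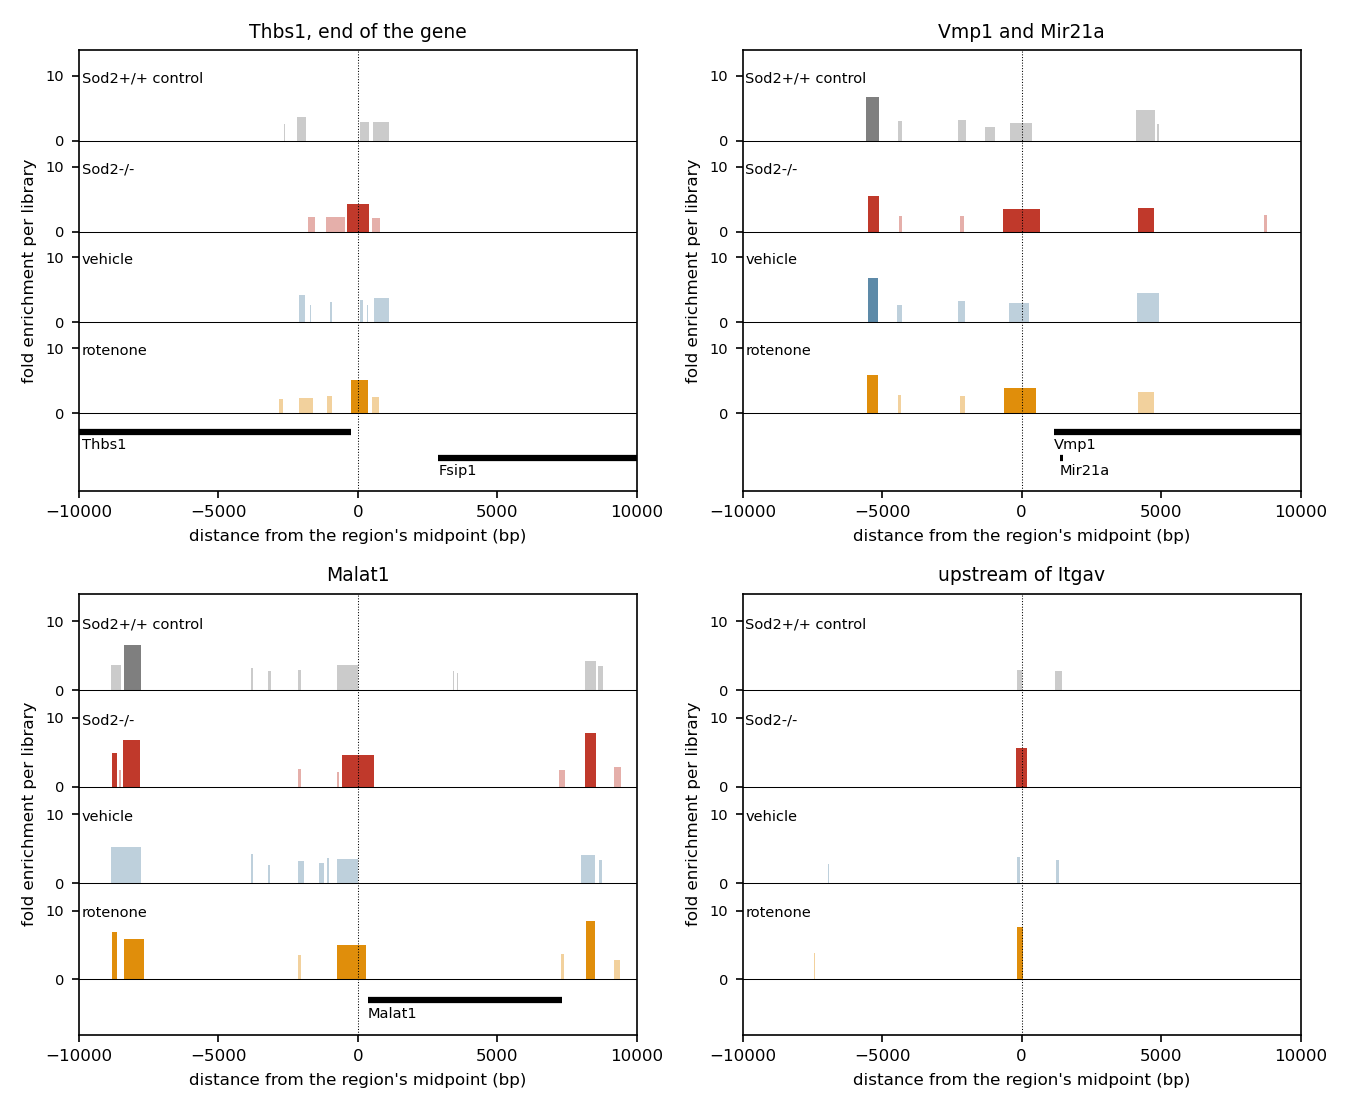
Peaks of the 4 libraries within 10 kb of 4 gained regions, with fold enrichment (height) against distance from the midpoint of the region in bp. Dark bars are strong peaks, pale bars weaker peaks down to rank 200000, and black lines annotated genes, and near Itgav the knockout peak (fold 5.54) and rotenone peak (7.63) stand over weak control peaks.

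Matrix genes of the dermis had 2 further regions. Dcn encodes decorin, a proteoglycan that binds collagen fibrils, and its region lay 23343 bp from the gene at chr10:97455740-97456157. The fold there was 3.01 in control and 3.03 in vehicle against 5.24 in the knockout and 5.63 in rotenone. Sparc encodes a collagen-binding matricellular protein, and a region 13104 bp from it (chr11:55433184-55433401) had 2.95 in control and 2.92 in vehicle against 5.60 in the knockout and 5.24 in rotenone. In the list of 28 collagen and matrix genes, Dcn and Sparc were the 2 with a gained region, or 1.64% of 122 strong knockout peaks, and Col1a2 and Col4a1 had 1 region each lost in both. The list of 14 matricellular genes held Thbs1 alone (2.94% of 34 strong peaks) and that of 20 integrin and adhesion genes Itgav and Itgb8 (1.83% of 109), with 1 region lost in both, at Itga5. Against the 1.15% of all strong knockout peaks, each of these shares rests on 1 or 2 regions.

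The actin list and the YAP list each had 2 genes with a gained region. Lmod1 encodes leiomodin 1, an actin nucleator of smooth muscle, and the region inside it (chr1:135359101-135359265) had a fold of 2.98 in control and 2.87 in vehicle against 5.41 in the knockout and 7.93 in rotenone. Pdlim5, a PDZ and LIM protein of actin filaments, had a region 28088 bp away with folds of 3.28 and 3.60 in the controls against 4.43 in the knockout and 4.73 in rotenone. Mrtfb encodes a coactivator of SRF that responds to actin, and Amotl2 an angiomotin that holds YAP in the cytoplasm. The Mrtfb region, 20517 bp from the gene, had 3.14 in control and 3.63 in vehicle against 4.68 in the knockout and 5.64 in rotenone. The Amotl2 region was close to the limit in both controls, with folds of 3.73 and 3.90 there and 4.64 and 4.87 in the perturbed libraries. Of 28 actin and myofibroblast genes, 2 had a gained region (2.04% of 98 strong peaks) and 1, Palld, a lost one. Of 17 YAP, TEAD and SRF genes, 2 had a gained region (3.64% of 55) and 2, Amotl1 and Ankrd1, a lost one. For all strong knockout peaks the share was 1.15%, and each of these 2 shares rests on 2 regions.

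In 4 further lists, of signalling and growth genes, the shares rested on 1 or 2 regions each. For all strong knockout peaks the share was 1.15%. The list of IGF and insulin signalling held Igf1r (1.14% of 88 strong peaks), that of Wnt and Notch Jag1 and Wnt5b (2.25% of 89), that of glycolysis and hypoxia Epas1 (1.45% of 69) and that of proliferation Myc (1.52% of 66). Regions lost in both were found at Heyl and Tcf7 of the Wnt and Notch list as well. Igf1r encodes the receptor of insulin-like growth factors, and the region inside it, at chr7:68127791-68127947, had a fold of 2.68 in control and 3.08 in vehicle against 5.20 in the knockout and 5.17 in rotenone. Another region inside Igf1r, at chr7:68085354-68085678, was lost in both, with a control fold of 5.47. Igf1r thus held a region of each kind. Jag1 encodes a Notch ligand, and its region lay 296975 bp from the gene. The fold was 3.11 in control and 2.84 in vehicle against 4.72 in the knockout and 5.71 in rotenone. Inside Wnt5b, a Wnt ligand gene, a 134 bp region had folds of 2.75 and 2.68 in the controls and 4.27 and 5.14 in the knockout and rotenone.

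Epas1 encodes the hypoxia-inducible factor HIF-2α. A region 28576 bp from it, at chr17:86725157-86725288, had a fold of 2.74 in control and 2.78 in vehicle against 4.68 in the knockout and 4.86 in rotenone. It was among the 52 regions beyond rank 120000 in both controls, with ranks of 130095 and 174113. Myc, the gene of a growth-promoting transcription factor, had a gained region 187116 bp away with folds of 3.59, 4.40, 3.41 and 4.80 in control, knockout, vehicle and rotenone. It also had 2 regions lost in both, with control folds of 5.95 and 5.80.

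The gene lists as a whole did not stand apart from other genes. Over 22 lists with 427 genes, 15 genes had a gained region, or 1.15% of the 1308 strong knockout peaks assigned to them, which equals the 1.15% of all 30000. Of the lists, 11 held none: AP-1 subunits (36 strong knockout peaks), matrix proteases and inhibitors (46), TGF-β and BMP signalling (99), EGF, FGF and PDGF signalling (99), senescence and p53 (40), secreted factors of senescent cells (36), antioxidant defence (44), the integrated and mitochondrial stress response (22), complex I (16), interferon and NF-kB (22), and glucocorticoid receptor and circadian targets (55). Of these 11 lists, all but the complex I list and the interferon and NF-kB list had regions lost in both. There were 4 for TGF-β and BMP signalling, 5 for EGF, FGF and PDGF signalling and 2 for the AP-1 subunits, at Jdp2 and Jun. Antioxidant defence (Nfe2l2, Txnrd1), the stress response (Asns, Eif2ak3), senescence and p53 (Ccng1, Plk2) and the glucocorticoid receptor list (Nr3c1) had 2 each. Matrix proteases (Mmp2) and secreted factors (Cxcl12) had 1 each. Over all strong control peaks 1.87% were lost in both, and strong control peaks per list were not counted. Sod2, Junb and Fosl2 had no region gained or lost in both. The remaining list genes with a gained region were Eef2, the only one of 15 housekeeping genes, and those named above.

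The highest ranked regions by the mean of the knockout and rotenone ranks were at genes of varied function. First was Tent5b, a poly(A) polymerase gene, with a 160 bp region inside the gene at chr4:133481599-133481758, 1466 bp from the start. It had a fold of 2.62 in control and 3.09 in vehicle against 6.38 in the knockout and 6.72 in rotenone, and ranked 9157 and 8123 in the perturbed libraries. The second was a 36 bp peak inside Atxn2, the gene of the RNA-binding protein ataxin 2, at chr5:121771486-121771521. It had a fold of 7.16 in the knockout and 6.75 in rotenone, while control held an 18 bp peak of fold 2.28 and vehicle none. The Atxn2 peak was among the narrowest of all the regions.

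Channel and receptor genes were among the next. Inside Cacna1a, which encodes the pore of the P/Q-type calcium channel, the region at chr8:84460732-84460999 had a fold of 2.70 in control and 2.77 in vehicle against 5.67 in the knockout and 7.35 in rotenone. Inside Erbb4, a receptor kinase for neuregulins, the fold was 3.59 in control and 2.97 in vehicle against 5.90 in the knockout and 6.43 in rotenone. Trhde, which encodes a peptidase that degrades thyrotropin-releasing hormone, had a 248 bp region inside the gene with 3.25 in control and 3.13 in vehicle against 6.99 in the knockout and 6.12 in rotenone. In each of these 3 genes, both perturbed libraries stood above both controls by more than 2 units of fold, a direction that the rule favours.

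Fam107b had the highest rotenone fold of the 346, 8.63, at a region 50009 bp from the gene (chr2:3832151-3832298). In the knockout it ranked 17817, and control and vehicle had folds of 3.38 and 2.96. The highest knockout fold was 7.24, inside Tnip3, an NF-kB inhibitor gene picked here for that value, with 4.96 in rotenone, 3.64 in control and 3.80 in vehicle. The highest fold thus belonged to a different region in each perturbed library. Of 346 regions, 166 ranked better in rotenone than in the knockout. Mtpn, the gene of the actin capping inhibitor myotrophin, had 3.41 in control and 3.62 in vehicle against 5.73 in the knockout and 6.83 in rotenone. Plekha6, Tmem125, Cep295 and Aamdc completed the best ranked, with knockout folds of 6.34, 4.18, 5.46 and 5.54 and rotenone folds of 6.64, 5.17, 7.03 and 7.65. Cep295, a centriole gene, had no vehicle peak and a control fold of 3.17.

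At gene ends, 10 of the 22 regions were on the start side of the gene they were assigned to, 5 at its far end and 6 at an end whose strand was not given. The remaining region, assigned to Rpl18, was counted through the end of a neighbouring gene. The promoter region of Eef2 shown above, at chr10:81176447-81176737, had a fold of 3.17 in control and 3.42 in vehicle against 3.58 in the knockout and 3.99 in rotenone. It ranked 60105 in vehicle, just past the limit, and its fold differed by less than 1 unit between any of the libraries. The Stard3 promoter region (chr11:98358073-98358324) had 3.60 in control and 3.09 in vehicle against 4.78 in the knockout and 4.97 in rotenone. At the Srpk1 promoter (chr17:28622358-28622694) the fold was 3.37 in control and 3.11 in vehicle against 4.30 in the knockout and 4.89 in rotenone. Each of these promoters was above both controls in the knockout and in rotenone, which the rule favours, and at Eef2 only narrowly. The Myo1c region with the AP-1 match lay upstream of a listed start and was not among the 22 at gene ends. It had 3.35 and 3.09 in control and vehicle and 4.13 and 4.73 in the knockout and rotenone.

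Kyat1, an aminotransferase gene of the kynurenine pathway, had a region across a listed start with 3.38 in control and 3.58 in vehicle against 4.84 in the knockout and 5.91 in rotenone. Tjap1, a tight junction gene, had 3.61 and 3.65 in the controls against 4.31 in the knockout and 5.15 in rotenone. Slco1a6, an organic anion transporter gene, had a region 280 bp from its start side with 3.11 in control and 2.65 in vehicle against 5.07 in the knockout and 4.64 in rotenone. All 3 were above both controls in each perturbed library, which the rule favours. At far ends or ends of unknown strand, Dmac2l, Hes2, Pjvk and Aamdc had knockout folds of 5.53, 4.81, 4.26 and 5.54, with control folds between 3.14 and 3.61. Tnks, the gene of tankyrase, had a region 861 bp from a gene end with no control peak, a vehicle fold of 2.45, and folds of 5.44 in the knockout and 4.65 in rotenone.

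The regions were spread over 331 genes, of which 15 had 2 regions and none more. Hs6st1, a heparan sulfate sulfotransferase gene, had regions 164086 and 50957 bp away with knockout folds of 5.77 and 5.51 and rotenone folds of 5.58 and 5.25. Sema3d, a secreted guidance factor gene, had regions 3142 and 130705 bp away with knockout folds of 5.35 and 4.28. The 2 of Efnb2, the ephrin-B2 gene, lay 1197714 and 130111 bp away, and at such distances the nearest gene is only a label. Magi2 and Macrod2 are long genes, of 1485406 and 1997664 bp, and counts per gene were not adjusted for length. Magi2 had a region inside it (fold 5.68 in the knockout, 5.05 in rotenone) and another 15784 bp away. Tnrc6c, a gene of microRNA silencing, and Tmpo, a nuclear lamina gene, had 2 each with knockout folds between 4.27 and 4.87.

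Aadac had 2 narrow regions, 46 and 56 bp wide, within a short distance of each other at chr3:60045701-60045746 and chr3:60045199-60045254. Dennd4c, Gsg1, Fam189a1 and C1qtnf7 had 2 each as well, with knockout folds between 4.26 and 5.43. Across all 346 regions there were 9 neighbouring pairs less than 100000 bp apart, and no such count was made for other peaks. A distance of over 100000 bp to the assigned gene was found for 57 regions, and 20 were assigned to predicted genes.

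Some genes held both gained and lost regions. Of the 331 genes with a gained region, 20 (6.04%) also had a region lost in both, which is 3.77% of the 530 genes with a lost one. Over all 21900 coding genes, 2.42% had a region lost in both, and 3.80% of the 12306 with a strong knockout peak did. Longer genes can hold more regions of either kind, and gene length was not adjusted for. Among them were Igf1r, Myc, Sox2, Macrod2, Vgll4 and Diaph3. Diaph3 encodes a formin that builds actin filaments, and its gained region (chr14:86757213-86757419) lay 709 bp from a lost one (chr14:86758128-86758479). The gained one had a fold of 3.11 in control and 3.86 in vehicle against 5.80 in the knockout and 5.87 in rotenone, and the lost one had 6.41 in control. It was the only gained region within 10000 bp of a lost one, and the median distance was 1696058 bp.

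By chromosome, the gained regions were 0.729% to 1.83% of strong knockout peaks, with the highest share on chromosomes 13 (26 of 1422) and X (11 of 602) and the lowest on chromosome 17 (9 of 1234). On chromosome Y there were 0 of 25. The exact interval of the X share among the gained regions, 3.18% (1.60 to 5.62), held the 2.01% of all strong knockout peaks.

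Signal from repeats was possible at 7 of the 346 regions, which had a fold under 3 or were assigned to Pisd, Sfi1 or Scaf8. By assigned gene they were 2 for Pisd, 2 for Scaf8 and 1 each for Sfi1, Tmem267 and Mid1, and 339 remain without them. Both Scaf8 regions, 34805 and 32481 bp from that gene, overlapped Pisd-ps2, a transcribed pseudogene. A Pisd region 6783 bp outside that gene overlapped the pseudogene Gm2420. The knockout folds of the 7 lay between 2.43 and 2.99 and their rotenone folds between 2.51 and 3.31, against 1.98 to 2.75 where the control or vehicle list had a peak. The Tmem267 region, 104 bp at chr13:119599275-119599378, was the best ranked of all 346 in the knockout, at 7178, with a fold of only 2.58. Whether repeats gave this signal was not tested. Without them the gene end share was 6.19% (3.88 to 9.31).

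Peaks just inside the limits were not always the more enriched. The last region inside the knockout limit, at Pkp1, ranked 29940 with a fold of 4.20, and the first outside, at Psmd5, ranked 30006 with 4.21. At the rotenone limit, Grk4 ranked 29986 with 3.83 and Gstm6, left out, ranked 30005 with the higher fold of 4.67. On the control side, Antxr2 ranked 60056 with 3.77 and was kept, while Ltn1 ranked 59940 with 3.70 and was not. On the vehicle side, B4galt5 ranked 60069 with 3.94 and Tpst2 ranked 59930 with 4.00.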

How the data were processed

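ATAC-seq of 4 libraries, 1 per group, was analysed from the deposited peak lists, called per library. The authors' lists have no header and were read as MACS2 broad peaks: position, a score that was not used, a fold enrichment (a ratio over local background), and −log10 p and −log10 q. Per the submitters' processing notes, Bowtie2, bedtools, MACS2, HOMER and mm10 were used. For settings, read filters and any Tn5 shift, the labels say nothing and depth is unknown. Starts were made 1-based. Gene ends came from the RefSeq table of GRCm38.p6 (21900 coding genes), and strands and promoters from its promoter table, which covers 79.9% of them and lacks chromosome 18. Regions were assigned to the coding gene spanning their midpoint or else the nearest end. No test was run. The members and gene lists were chosen with earlier results of these data known. Genes were named by rule: the 15 best by mean knockout and rotenone rank, up to 12 genes with 2 regions, up to 12 at gene ends, all list genes, the possible repeats and those nearest the limits. To check the overlap code, peaks with very high values were planted in the real lists where no library had a peak. Of those planted as gained, 100 of 100 were recovered, and 0 of 100 also planted in control were called. Such a check does not measure how many weaker regions would be found. Python 3.11.15 was used, with pandas 2.3.3, numpy 2.4.6, matplotlib 3.10.9 and scipy 1.17.1. Alternatives were list length, ranking, overlap, chromosomes, width and windows.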

Additional observations from a re-analysis of the deposited data

How the results depend on the processing

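The number of regions gained in both followed the list lengths. It was 346, and 166 with 15000 strong and 30000 control peaks (163 without possible repeats), 1113 with 60000 and 120000 (1092), and, with 30000 strong peaks, 2637 against 30000 control and vehicle peaks (2610), 52 against 120000 (51) and 6 against every peak (5). With the shorter lists, 12 of the 346 regions were overlapped by the 166, and with the longer ones 52. It was 367 when ranked by fold enrichment (299 of the 346 overlapped), 389 with 50% of the peak covered, 345 from the rotenone list, 334 on autosomes and, chosen after seeing the data, 267 with widths of at least 100 bp. The share at gene ends was 6.36%, and 13.3%, 3.59%, 14.9% and 16.7% with the 15000, 60000, 30000 control and every-peak lists, and 11.0% with a window of 2500 bp. The share of strong knockout peaks outside the control list was 5.33%, and 4.90%, 12.1%, 22.8%, 1.23% and 0.243% in the order of lists above, 5.86% by fold and 5.76% with 50% covered. For rotenone against vehicle it was 6.81%, and 5.52%, 15.6%, 24.4%, 2.12% and 0.773%, 7.43% by fold and 7.75% with 50% covered. No paired analysis was possible because each group has 1 library, so leaving out a replicate was not possible either. Without read counts, depth could not be compared.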
